A study of Mus musculus with 3 samples.

Results

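The cells described here are the mesenchymal-gate cells of 3 mouse rhabdoid brain tumours, chosen by the transcripts they held. A cell entered the gate when it had at least 2000 UMIs (unique molecular identifiers, each standing for 1 captured transcript), at most 15% mitochondrial UMIs and a UMI of at least 3 of the 7 genes Col3a1, Twist1, Ogn, Mpzl2, Fam180a, Serpinf1 and Prrx1. It also had to show fewer than 2 genes in each of 3 exclusion groups, which were the mural genes Rgs5, Vtn and Kcnj8, the endothelial genes Cldn5, Pecam1 and Flt1, and the immune genes C1qa, Tyrobp and Ctss. The gate held 961 of the 13789 cells that passed the depth and mitochondrial limits. These were 488 of 6845 cells in tumour 1, 389 of 3876 in tumour 2 and 84 of 3068 in tumour 3.

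Each tumour grew in the brain of a different mouse of the genotype Rosa 26-CreERT2::Smarcb1flox/flox, on a mixed 129/SV and C57BL/6 background, and was assigned by the study to its R26-SHH group. In these animals a Cre recombinase that tamoxifen activates is expressed from the Rosa26 locus, so that recombination of the floxed Smarcb1 alleles is not tied to a cell type and stromal cells of the host carry the same alleles. Dissociated cells were sequenced with 10x droplet libraries that count transcripts from their 3' end. All 3 samples belong to this single group, their numbers only name the tumours, and neither ages nor separate control animals were used. The comparisons were therefore made between cell classes within tumours. The gate cells were set against Sox9-positive cells outside the gate (1880, 1050 and 1384 cells), which held a Sox9 UMI, fewer than 3 gate genes and passed the same exclusions, and against mural cells of the vessel wall (85, 30 and 43 cells), which held Rgs5 with Vtn or Kcnj8. UMIs were summed per tumour and class and are given as CPM, the count scaled to 1000000 UMIs of that sum. Endothelial cells and immune cells of the same tumours show the level that free RNA in the droplets can give to a cell that should lack a gene.

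Mesenchymal cells form connective tissue. They secrete fibrillar collagens and proteoglycans, and their identity depends on transcription factors of the Twist, Snai, Prrx and Fox families. Rhabdoid tumours lose SMARCB1, a core subunit of the SWI/SNF complexes that move nucleosomes at enhancers and promoters, and they are known for mixing neural, epithelial and mesenchymal differentiation within a single tumour. Fibroblasts and pericytes of the host make many of the same matrix proteins, so that Smarcb1 RNA, which the gate did not use, was measured first.

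Smarcb1 (chr10:75896769-75921617, mm10) was nearly absent from gate cells. It had 9 UMIs in the gate cells of tumour 1, 6 in tumour 2 and 0 in tumour 3, or 1.34, 1.22 and 0 CPM. The exact Poisson 95% intervals were 0.612 to 2.54 and 0.447 to 2.65 CPM, and the count of 0 allows a level of up to 1.29 CPM at a limit of 3 counts; such intervals and limits cover counting error only. The UMIs lay in 4, 4 and 0 cells, and a single cell held 66.7% of those in tumour 1. Immune cells carried 20.8, 13.1 and 12.3 CPM, endothelial cells 39.7, 28.7 and 42.0 CPM and mural cells 59.5, 44.3 and 43.1 CPM. Every gate sum thus lay below every sum of these 3 host classes. Sox9-positive cells had 0.975, 1.69 and 0.903 CPM, a range that overlaps the gate.

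On the log2 scale Smarcb1 in gate cells was 4.18 ± 0.44 (SE, n = 3 tumours) below immune cells in edgeR's quasi-likelihood test (adjusted p = 6.48e-06, 95% interval of the difference -5.12 to -3.24), and lower in 3 of 3 tumours. Against mural cells the difference was -5.61 ± 0.48 (adjusted p = 3.03e-06, interval -6.65 to -4.58), again in 3 of 3 tumours. Against Sox9-positive cells it was -0.14 ± 0.53 with an adjusted p of 0.978 by the same edgeR test. Its 95% interval was -1.28 to 0.99, and the sign turned (0.09) without tumour 3. The 21 gate cells with at least 2 of the fibroblast genes Dcn, Lum, Slc6a13, Slc22a6 and Apod, 10 in tumour 1 and 11 in tumour 2, held 1 Smarcb1 UMI in 181322 UMIs of tumour 1 and 0 in 143391 UMIs of tumour 2. That depth is too low to place these 21 cells, since their intervals reach 30.7 and 25.7 CPM and include the immune level of their tumour.

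**Figure D1:**
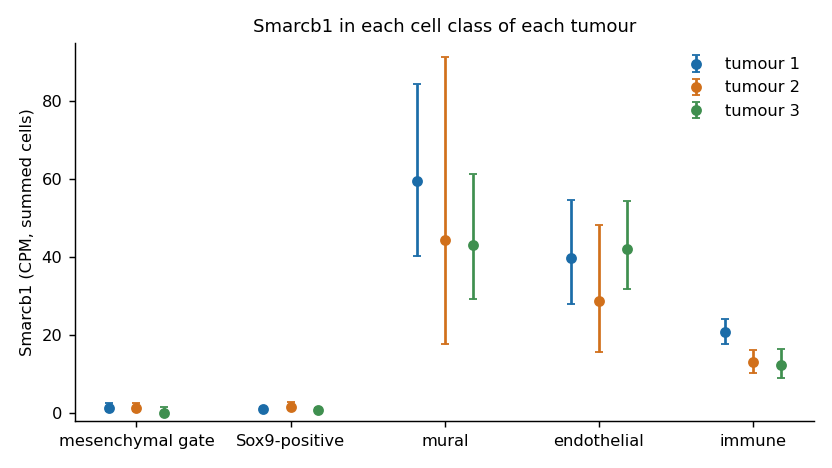
Smarcb1 in CPM (vertical axis) for the summed cells of each class (horizontal axis), with 1 point per tumour and exact Poisson 95% intervals that cover counting error only. The gate and Sox9-positive sums lie between 0 and 1.69 CPM, and all sums of mural, endothelial and immune cells lie at 12.3 CPM or above.

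Gate cells made up 7.13% of the cells of tumour 1 (exact binomial 95% interval 6.53 to 7.76), 10.0% of tumour 2 (9.11 to 11) and 2.74% of tumour 3 (2.19 to 3.38), with a mean of 6.63% ± 3.67 (SD, n = 3). Tumour 3 stood below both others although its cells were the deepest, with a median of 18751 UMIs against 9413 and 7250. When every cell was thinned to 2000 UMIs before the rule was applied, the shares were 2.05, 2.99 and 0.782%. The gate is a threshold on the number of genes detected, and whether its cells stand apart from the rest was not tested. Of its members 63.9, 67.1 and 57.1% had exactly 3 gate genes, the lowest number that passes, and 65, 46 and 12 cells had 5 or more. Among immune cells, 2.58, 4.54 and 1.52% also held at least 3 gate genes before the exclusions, at median depths of 9290, 7151 and 15822 UMIs against 11758, 10321 and 20757 UMIs in gate cells. These are shares of immune cells, whereas the gate shares are of all cells kept.

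The 7 genes that define the gate did not contribute alike, and their values describe the choice of cells rather than a result. Twist1, a basic helix-loop-helix factor of mesoderm and neural crest, was present in 93.9, 91.3 and 90.5% of gate cells. Prrx1, a homeobox factor of limb and craniofacial mesenchyme, was present in 88.1, 88.2 and 83.3%. Col3a1, which encodes a fibrillar collagen of soft connective tissue, was found in 88.9, 88.9 and 59.5% of them. The low value is that of tumour 3. Mpzl2, an adhesion protein of epithelia, went the other way and was found in 22.1, 26.0 and 78.6%. The small proteoglycan gene Ogn was present in 29.7, 30.1 and 28.6% of gate cells, the secreted serpin gene Serpinf1 in 19.9, 18.3 and 11.9% and Fam180a in 10.7, 4.37 and 8.33%. The set Col3a1, Twist1 and Prrx1 was complete in 353 cells of tumour 1, 274 of tumour 2 and 31 of tumour 3. In tumour 3 the set Twist1, Mpzl2 and Prrx1 was the more frequent, with 50 of 84 cells against 77 and 66 cells in the others.

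**Figure D2:**
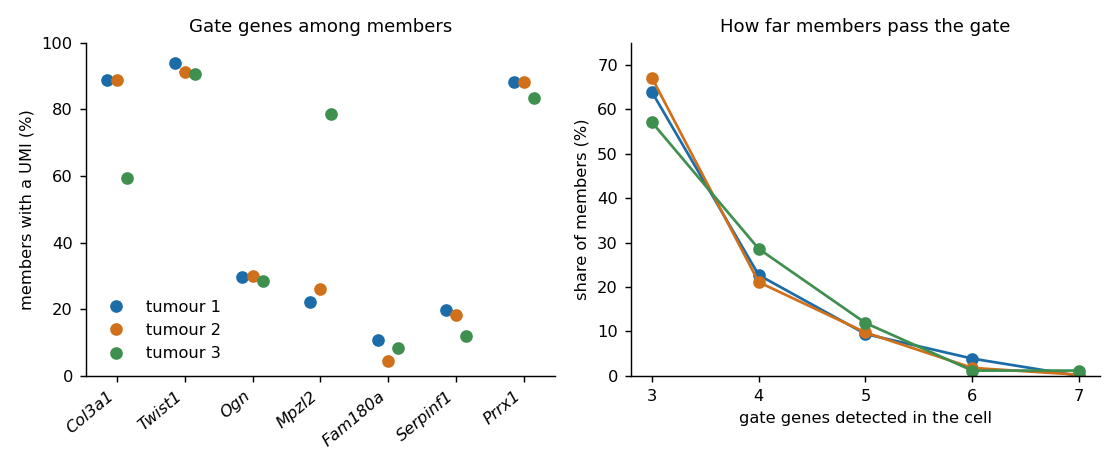
Left, share of gate cells with a UMI of each gate gene (percent, 1 point per tumour). Right, share of gate cells (percent) by the number of gate genes they held, with 1 line per tumour; 57.1% or more of each tumour's gate cells sit at 3 genes, and in tumour 3 Mpzl2 is frequent and Col3a1 less so.

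The label mesenchymal was checked against genes that the rule did not use. In the gate, the 12 markers of meningeal or perivascular fibroblasts summed to 1108, 925 and 324 CPM, against 218, 291 and 12.9 CPM in Sox9-positive cells and 78.9, 153 and 27.6 CPM in immune cells. Slc22a6 and Slc47a1 were at 0 in gate cells, and in mural cells the same list summed to between 4950 and 8139 CPM. The 7 mural markers, 3 of which the rule used, summed to 14.9, 12.6 and 48.0 CPM in the gate and to 12339 CPM or more in mural cells. The 6 endothelial markers reached at most 23.4 CPM and the 6 immune markers at most 29.7 CPM in the gate, and 3 of each list were used by the rule. Of the 6 choroid plexus markers 5 were detected in gate cells, with sums of 248, 487 and 1.72 CPM, beside 261, 2986 and 0.654 CPM in Sox9-positive cells. Ttr made 242, 476 and 0 CPM of the gate sums. Immune cells summed to 2.18, 62.4 and 0 CPM and endothelial cells to 1.07, 12836 and 0 CPM. The 4 haemoglobin genes of red cells summed to 302, 301 and 0.429 CPM in the gate and to 4.71, 763 and 0 CPM in immune cells. Their part in the results below was not tested. The 6 astrocyte markers were at 325, 400 and 291 CPM, above the 142, 219 and 160 CPM of immune cells, and below Sox9-positive cells (349, 541 and 166 CPM) in tumours 1 and 2 but above them in tumour 3. The 7 cartilage and bone markers summed to 121, 80 and 182 CPM in the gate, 55.1, 67 and 51.9 CPM in Sox9-positive cells and 49.9, 63.3 and 19.5 CPM in mural cells. The 6 smooth muscle markers summed to 98.8, 25.8 and 78.1 CPM in the gate, 34.5, 11.5 and 7.35 CPM in Sox9-positive cells and 253 CPM or more in mural cells. The epithelial adhesion gene Epcam was found in 57.6, 50.1 and 79.8% of gate cells without thinning, 59.9, 43.2 and 60.6% of Sox9-positive cells and 24.3, 18.2 and 28.3% of immune cells. In each tumour the fibroblast sum was thus higher in the gate than in Sox9-positive and immune cells and lower than in mural cells. Endothelial cells, at 673, 429 and 753 CPM, were above the gate in tumour 3. Mgp alone made 6850, 7050 and 4556 CPM of the mural sums and 190, 318 and 115 CPM of the gate sums. In the gate of tumour 3 Foxc1 added 108 CPM, whereas Col1a1 was at 10.7, Apod at 0.429 and Lum at 0 CPM.

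The level of Sox2, a transcription factor of neural stem cells, in the gate lay between those of the other classes. It was at 266, 295 and 245 CPM in the gate, at 426, 397 and 407 CPM in Sox9-positive cells and at 137, 121 and 180 CPM in immune cells. The 3 classes did not overlap. At 2000 UMIs per cell, Sox2 was found in 29.5, 36.8 and 26.2% of gate cells, in 47.3, 43.0 and 47.3% of Sox9-positive cells and in 14.3, 10.8 and 17.2% of immune cells. Without thinning the shares were 65.0, 67.6 and 72.6% in the gate, 81.0, 71.9 and 89.2% in Sox9-positive cells and 31.1, 26.8 and 38.4% in immune cells. The mean thinned difference between gate and Sox9-positive cells was -15 percentage points ± 7.76 (SD, n = 3), with the same sign in 3 of 3 tumours and a two-sided exact permutation p of 0.25, the smallest that 3 pairs can give. In the fit across all genes the log2 difference of Sox2 was -0.58 ± 0.22 and did not pass (edgeR adjusted p = 0.219). Sox9, by which the comparison class was chosen, was found in 15.6, 30.3 and 3.57% of thinned gate cells (31.4, 42.9 and 21.4% without thinning). Immune cells had 10.4, 13.4 and 10.1% (21.4, 25.3 and 26.8%), so that the share in tumour 3 is no more than background.

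Next, gate cells were compared with Sox9-positive cells across 13855 genes, leaving out the 16 genes of the rule and Sox9. In edgeR's quasi-likelihood test with tumour as a block, 421 genes were higher in the gate (3.04% of those tested) and 57 were lower (0.411%), and 461 of the 478 had the same direction in 3 of 3 tumours. Those that were higher include matrix proteins, mesenchymal transcription factors and secreted growth factor regulators, and those that were lower include the neuronal genes Tubb3, Elavl4 and Map2. The count changed with the tumours used. Leaving out tumour 1 gave 9 calls, tumour 2 gave 181 and tumour 3 gave 876. None of the called genes given with values below was among the 9 left without tumour 1, but each of them that could still be fitted kept its sign there. With only gate cells that held a Sox9 UMI 93 genes passed, and with no term for tumour 142. In the lists described next, the cells with a Sox9 UMI left 1 of 16 mesenchymal transcription factors, 5 of 39 matrix genes, 0 of 19 insulin-like and platelet-derived growth factor genes and 3 of 22 filament and adhesion genes higher, 0 of 13 neuronal genes lower and no call among 20 Notch genes. With only the 2 compared classes in the fit 1 of 16 transcription factors and 7 of 37 matrix genes were higher. The fit with no term for tumour left 5 of 20, 12 of 42, 1 of 19 and 2 of 23 of these lists higher and 0 of 13 neuronal genes lower, with the Notch calls at 1 higher and 2 lower. Each list count below is read against the shares of 3.04% higher and 0.411% lower over all genes. A gene could pass the filter on low counts by the sums of 1 class alone. One that passed only by its gate sums could hardly be called lower. When cells were classed on 1 random set of their UMIs and summed on the rest, 508 genes passed, 368 of them shared with the 478. The genes that formed the classes were left out of both fits. The split therefore does not address selection through genes expressed together with them.

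Transcription factors of mesenchyme other than the gate genes were described first. Of 20 measured members of the list 8 were higher in the gate and 0 were lower, with a median log2 difference of 1.55 (1.57 with a gene absent from a class at its bound) where all genes had a median of -0.02. The 8 were Foxc1, Foxc2, Foxs1, Twist2, Prrx2, Snai1, Tbx18 and Meox2, of which Foxs1 rests on 19 gate UMIs with 0 in tumour 2 and lost its call without 1 gate cell of tumour 3 (edgeR adjusted p = 0.0654). Foxc1 (chr13:31806633-31812476), a forkhead factor needed for the meninges and the vessel wall, was at 152, 109 and 108 CPM in the gate, at 12.3, 19.4 and 1.43 CPM in Sox9-positive cells and at 16.1, 15.9 and 4.38 CPM in immune cells. Mural cells, at 159, 95 and 93.2 CPM, and endothelial cells, at 205, 174 and 101 CPM, overlapped the gate. All 3 gate values lay above those of Sox9-positive and immune cells. The log2 difference from Sox9-positive cells was 3.84 ± 0.51 (edgeR adjusted p = 0.00125), between 3.08 and 4.70 when 1 tumour was left out. Twist2, the paralogue of Twist1, was at 12.9, 5.89 and 15 CPM against 0.487, 0.564 and 1.06 CPM (3.92 ± 0.63, edgeR adjusted p = 0.00447). The groups did not overlap, although 45.7% of its UMIs in tumour 3 came from 1 cell. Twist2 could not have passed the filter on low counts by its Sox9-positive sums, so a call of lower was out of reach. Prrx2, the paralogue of Prrx1, was at 25.9, 18.3 and 17.6 CPM against 7.16, 3.83 and 1.37 CPM, a difference of 2.48 ± 0.44. Meox2, a mesoderm homeobox factor, differed by 4.36 ± 0.80, and Snai1, a repressor of epithelial genes, by 3.13 ± 0.60 but with only 0.429 CPM in the gate of tumour 3. Snai2, of the same family, was at 4.02, 7.72 and 16.7 CPM against 1.17, 1.69 and 62.3 CPM, thus lower in tumour 3. It did not pass (0.21 ± 0.74, edgeR adjusted p = 0.974). Zeb1, another repressor of epithelial genes, was at 101, 112 and 83.6 CPM in the gate and at 105, 113 and 105 CPM in Sox9-positive cells. Its difference of -0.11 ± 0.15 did not pass (edgeR adjusted p = 0.871) and turned to 0.04 in thinned cells. Without tumour 1 the count for this list was 0, and without tumour 2 it was 4 higher and 1 lower. Without the filter on low counts 10 of 28 members were higher and 1 was lower.

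Extracellular matrix genes were higher in the gate for 21 of 42 measured members and lower for 0, with a median of 1.82, and 40 of the 42 differences were positive. Col6a1 (chr10:76708792-76726168), a chain of the microfibrillar collagen that surrounds mesenchymal cells, was at 104, 41.6 and 1.29 CPM in the gate and at 0.536, 2.93 and 0.343 CPM in Sox9-positive cells. Tumours 1 and 2 were high, and in tumour 3 only 2 gate cells held a Col6a1 UMI. The log2 difference was 5.25 ± 0.93 (edgeR adjusted p = 0.00747), and 3.61 without tumour 1. Col6a2 (chr10:76595762-76623630), its partner chain, was at 128, 67.2 and 9.01 CPM against 2.63, 2.82 and 6.73 CPM (3.8 ± 0.73). Col15a1, a collagen of basement membranes, was at 41.8, 20.7 and 7.72 CPM against 1.95, 2.37 and 0.685 CPM, and the groups did not overlap (3.97 ± 0.65). Fbln5, which helps to assemble elastic fibres, differed by 4.33 ± 0.68, and the collagen-binding proteoglycan gene Dcn by 3.34 ± 0.69. The chains of the major fibrillar collagen were less even. Col1a1 was at 306, 155 and 10.7 CPM against 53.1, 103 and 1.78 CPM, and its difference of 1.87 ± 0.56 did not pass (edgeR adjusted p = 0.101), nor did that of Col1a2 (1.39 ± 0.59, edgeR adjusted p = 0.292). Without tumour 1 the matrix list kept 1 call, Col12a1, without tumour 2 it had 8 and without tumour 3 it had 30. Of 22 matrix enzymes and inhibitors 8 were higher and 0 lower (median 0.86; 0 without tumour 1 and 3 without tumour 2), among them the collagenase gene Mmp2 (2.96 ± 0.62), which in tumour 3 was at 1.29 CPM in the gate and 1.37 CPM in Sox9-positive cells. Loxl1, an enzyme that cross-links elastin, was at 35.0, 33.5 and 48.5 CPM against 12.8, 16.1 and 13.4 CPM, without overlap (1.46 ± 0.33, edgeR adjusted p = 0.0268).

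**Figure D3:**
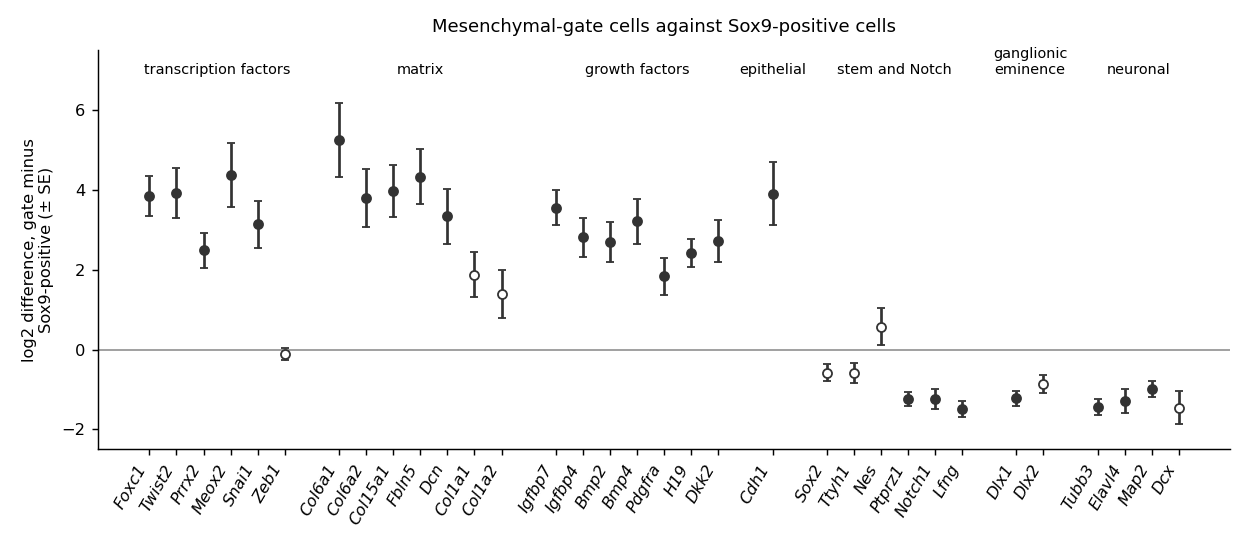
Log2 difference between gate cells and Sox9-positive cells (vertical axis, point ± SE from the edgeR fit over 3 tumours) for named genes grouped by role (horizontal axis). Filled points passed the test at an adjusted p under 0.05 and open points did not; matrix, growth factor and, except Zeb1, transcription factor genes lie above 0, and neuronal genes below it, with Ptprz1 at -1.24 and Tubb3 at -1.44.

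Growth factor genes and their binding proteins formed the third group. In the list of insulin-like and platelet-derived growth factor genes 9 of 19 members were higher and 0 lower (median 0.95), where 3.04% of all genes were higher. The count was 0 without tumour 1 and 3 without tumour 2. Igfbp4, a secreted protein that holds insulin-like growth factors, was at 657, 635 and 289 CPM in the gate against 78.4, 142 and 28.1 CPM, without overlap (2.81 ± 0.49, edgeR adjusted p = 0.00714). Igfbp7 was at 236, 122 and 171 CPM against 12.1, 22.1 and 11.4 CPM (3.55 ± 0.44, edgeR adjusted p = 0.000932), and single cells held 37.5 and 41.6% of its gate UMIs in tumours 2 and 3. The imprinted non-coding RNA H19 was at 200, 157 and 63.5 CPM against 63.9, 39.0 and 5.30 CPM (2.41 ± 0.35), but 1 cell held 91.2% of its UMIs in tumour 3. Its neighbour Igf2, a fetal growth factor gene, was at 24, 15 and 1.72 CPM against 11.9, 13.3 and 0.374 CPM and did not pass (edgeR adjusted p = 0.577). Pdgfra, the receptor of fibroblasts and glial precursors, was at 44.0, 46.3 and 32.6 CPM against 18.1, 18.6 and 3.27 CPM (1.83 ± 0.46, edgeR adjusted p = 0.0485). Among 32 genes of the TGF-beta and BMP pathways 5 were higher and 1 lower (0 and 0 without tumour 1, 1 and 0 without tumour 2, 9 and 1 without tumour 3), with Bmp2 at 63.1, 32.5 and 36.9 CPM against 9.6, 5.19 and 5.86 CPM (2.69 ± 0.49) and Bmp4 at 29.3, 20.1 and 9.43 CPM against 3.02, 3.72 and 0.530 CPM (3.21 ± 0.56). Both ligands were higher in the gate of every tumour. Of 24 Wnt genes 2 were higher, the secreted inhibitor Dkk2 (2.71 ± 0.53) and the nuclear effector Tcf7 (2.18 ± 0.39). The Wnt count was 0 without tumour 1 or tumour 2, and without tumour 3 it was 8 of 26 higher and 1 lower.

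The epithelial cadherin gene Cdh1 and some genes of the interferon response were also among those higher in the gate. Cdh1 was at 8.33, 5.89 and 57.5 CPM against 0.682, 3.04 and 0.717 CPM, highest in the gate of tumour 3 (3.90 ± 0.79, edgeR adjusted p = 0.0148), and its difference was 2.32 without tumour 3. Ifitm2 (chr7:140954837-140955987), an interferon-induced membrane protein gene, was at 321, 285 and 87.9 CPM against 18.8, 31.5 and 2.43 CPM (3.94 ± 0.45, edgeR adjusted p = 0.000553), with 71.3, 106 and 36.9 CPM in immune cells. Of 13 genes of class I antigen presentation and the interferon response 3 were higher, Isg15, Bst2 and Psmb8, and all 13 differences were positive (median 1.02). With tumour 1, 2 or 3 left out, 0, 2 and 5 of them were called. Both Bst2 and Psmb8 stood higher in immune cells than in the gate. Of 23 filament and adhesion genes 7 were higher and 0 lower (median 1.56), with 0 of 25 without tumour 1, 4 of 22 without tumour 2 and 14 of 25 without tumour 3. Lgals1, a secreted galectin of this list, was at 524, 310 and 369 CPM against 88.0, 72.2 and 66.5 CPM (2.40 ± 0.28, edgeR adjusted p = 0.000573). Pmp22, a membrane protein gene of peripheral nerve and mesenchyme, was at 240, 208 and 143 CPM against 63.2, 64.1 and 27.4 CPM (2.01 ± 0.26), and immune cells had 150, 262 and 102 CPM. Of 22 cell cycle genes only Cdkn2a, a tumour suppressor that holds the cycle, was called (list median 0.59), a share close to the 3.04% of all genes. It was at 33.8, 42.0 and 26.6 CPM against 9.06, 14.7 and 3.96 CPM (1.98 ± 0.49, edgeR adjusted p = 0.0418), and its call was lost without tumour 1 (0.222) and without tumour 2 (0.228). Without tumour 3 the cell cycle list had 4 calls.

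A few of the top genes were carried by single cells. Nupr1, a stress-induced chromatin protein gene, had the largest fitted difference of the genes called against Sox9-positive cells (6.72 ± 1.06, edgeR adjusted p = 0.00391). It was at 39.4, 33.5 and 473 CPM in the gate. In tumour 3 a single cell held 99.4% of its UMIs, and without that cell the difference was 3.96 with an edgeR adjusted p of 0.00154. Immune cells held 49.0, 63.7 and 44.3 CPM of Nupr1, which the gate exceeded only in tumour 3. In that tumour single cells also held 84.0% of the UMIs of Plac8 and 81.7% of those of the hormone precursor gene Trh. The differences of these 2 genes were 5.48 ± 0.88 and 4.25 ± 0.62.

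Some neural genes were lower in the gate. Of 13 measured neuronal genes 3 were lower in the gate and 0 higher, where 0.411% of all genes tested were lower, with a median of -0.98 and no positive difference. Tubb3, the tubulin of neurons, was at 10.3, 19.1 and 6.43 CPM in the gate against 26.7, 56.5 and 16.2 CPM in Sox9-positive cells (-1.44 ± 0.19, edgeR adjusted p = 0.0013). Elavl4, an RNA-binding protein gene of young neurons, was at 78.1, 113 and 79.3 CPM against 222, 202 and 224 CPM (-1.28 ± 0.30), and Map2, a protein of dendrites, at 94.9, 151 and 69.5 CPM against 226, 271 and 130 CPM (-0.99 ± 0.20). Immune cells had 22.8, 41.9 and 13.7 CPM of Tubb3, above the gate in every tumour, 89.6, 85.2 and 85.1 CPM of Elavl4 and 107, 127 and 92.4 CPM of Map2. The gate values of Elavl4 and Map2 in tumours 1 and 3 were thus below the free RNA level too. Dcx missed the threshold (-1.46 ± 0.41, edgeR adjusted p = 0.0769). In the ganglionic eminence list, which marks the ventral forebrain progenitors of interneurons, 0 of 13 genes were higher and only Dlx1 was lower, at 58.9, 62.8 and 24.4 CPM against 136, 130 and 67.4 CPM (-1.22 ± 0.19, edgeR adjusted p = 0.00323), with 44.5, 44.1 and 23.8 CPM in immune cells. Dlx2 (-0.87 ± 0.23) did not pass in the fit with 3 tumours (edgeR adjusted p = 0.0538). Of 15 neural stem genes only Ptprz1, a receptor phosphatase of radial glia, was called, at 275, 242 and 157 CPM against 672, 637 and 325 CPM (-1.24 ± 0.18, edgeR adjusted p = 0.00236). Ttyh1 was at 294, 352 and 319 CPM against 446, 584 and 435 CPM (edgeR adjusted p = 0.273), and Nes at 93.7, 96.9 and 45.5 CPM against 77.7, 53.9 and 34.7 CPM (edgeR adjusted p = 0.72). These counts moved with the cells used. Without tumour 3, 9 of 14 neuronal, 6 of 13 ganglionic eminence and 5 of 16 stem genes were lower, without tumour 2 the counts were 1 of 13, 2 of 11 and 1 of 14, and without tumour 1 none was. With at least 4 gate genes per cell 6 of 12 neuronal, 6 of 10 eminence and 5 of 13 stem genes were lower, and in thinned cells 7 of 11, 4 of 8 and 2 of 13. Among the lowest differences outside the lists, Draxin, a secreted axon guidance protein, was at 8.04, 20.3 and 48.9 CPM against 32.3, 40.1 and 266 CPM (-1.80 ± 0.27), and Btbd17 at 19.2, 20.5 and 41.6 CPM against 55.8, 49.7 and 122 CPM (-1.45 ± 0.14).

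Of 20 Notch genes 2 were lower and 1 higher, and of 12 hedgehog genes 1 was higher and 0 lower, where 0.411% of all genes tested were lower and 3.04% higher. Among the Notch genes the receptor gene Notch1 (-1.24 ± 0.25) and the receptor-modifying enzyme gene Lfng (-1.49 ± 0.20) were lower, at 15.6, 18.1 and 20.2 CPM against 29.3, 38.8 and 60.5 CPM and at 16.4, 18.5 and 19.7 CPM against 43.2, 45.1 and 71.6 CPM. The Notch target Heyl, typical of the vessel wall, was higher, at 8.78, 2.03 and 3.43 CPM against 0.292, 0.677 and 0.218 CPM (3.78 ± 0.71). Without tumour 3 the Notch list had 5 lower and 2 higher, without tumour 1 it had no call, and with at least 4 gate genes it had 7 lower and 1 higher. The hedgehog gene called was that of the co-receptor Cdon, at 132, 121 and 145 CPM against 66.4, 92.2 and 71.6 CPM (0.82 ± 0.20, edgeR adjusted p = 0.0368). Without tumour 3 the hedgehog list had 4 higher, and without tumour 1 or tumour 2 it had none. The hedgehog targets Gli1, at 20.8, 19.9 and 22.3 CPM against 13.7, 12.5 and 5.58 CPM, and Ptch1, at 408, 414 and 524 CPM against 318, 332 and 217 CPM, were above the other class in each tumour but did not pass (edgeR adjusted p = 0.117 and 0.31). None of 25 SWI/SNF subunit genes other than Smarcb1 and none of 7 neuronal repressor genes passed in either direction, with medians of -0.08 and -0.02. At an unadjusted p under 0.05 the counts were 5 and 0, and DESeq2 called 1 and 0. Rest, the repressor of neuronal genes, was at 106, 108 and 81.1 CPM against 81.4, 90.3 and 95.6 CPM. At 2000 UMIs per cell Mki67 or Top2a, genes of dividing cells, was found in 17.6, 18.5 and 26.2% of gate cells, 11.8, 10.7 and 17.3% of Sox9-positive cells and 10.7, 10.5 and 17.7% of immune cells (34.0, 32.4 and 56.0%, 24.7, 19.1 and 40.2%, and 22.0, 20.9 and 36.4% without thinning). The gate was higher by 7.53 percentage points ± 1.58 (SD, n = 3) than Sox9-positive cells in 3 of 3 tumours, with a two-sided exact permutation p of 0.25, the smallest possible. By level Mki67 did not pass (0.67 ± 0.40, edgeR adjusted p = 0.552).

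The number of gate genes in a cell ran in parallel with genes outside the gate. This is a description only, because the number defines the gate, and the step of 5 or more genes in tumour 3 holds 12 cells. Foxc1 went from 7.33 CPM in cells of tumour 1 with no gate gene to 32.3 CPM at 2 genes, just outside the gate, 98.8 CPM at 3 genes, just inside, and 310 CPM at 5 or more. In tumour 2 the values at 2, 3 and 5 or more genes were 31.8, 76.8 and 213 CPM, and in tumour 3 they were 36.4, 56.4 and 319 CPM. Col1a1 followed in tumour 1, from 41.7 CPM at 2 genes to 139 and 940 CPM, and in tumour 2, from 80.9 to 103 and 345 CPM, and stayed at 23.7 CPM or below in tumour 3. Sox2 went down over the same steps, from 358 to 300 and 164 CPM in tumour 1, from 368 to 319 and 224 CPM in tumour 2 and from 300 to 298 and 71.7 CPM in tumour 3. Ptprz1 went from 459 to 365 and 67.6 CPM in tumour 1 and from 353 to 273 and 158 CPM in tumour 2. In tumour 3 it went from 284 to 203 and 162 CPM, with 49.1 CPM at 4 genes in between. Median depth was also higher at 5 or more genes than at 2, at 12403 against 11242 UMIs in tumour 1, 12266 against 8866 in tumour 2 and 27644 against 20138 in tumour 3. It did not rise at every step, with 10526 UMIs at 4 genes in tumour 1. In cells with 4 or more gate genes Smarcb1 had 1 UMI in tumour 1 and 0 in tumours 2 and 3.

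**Figure D4:**
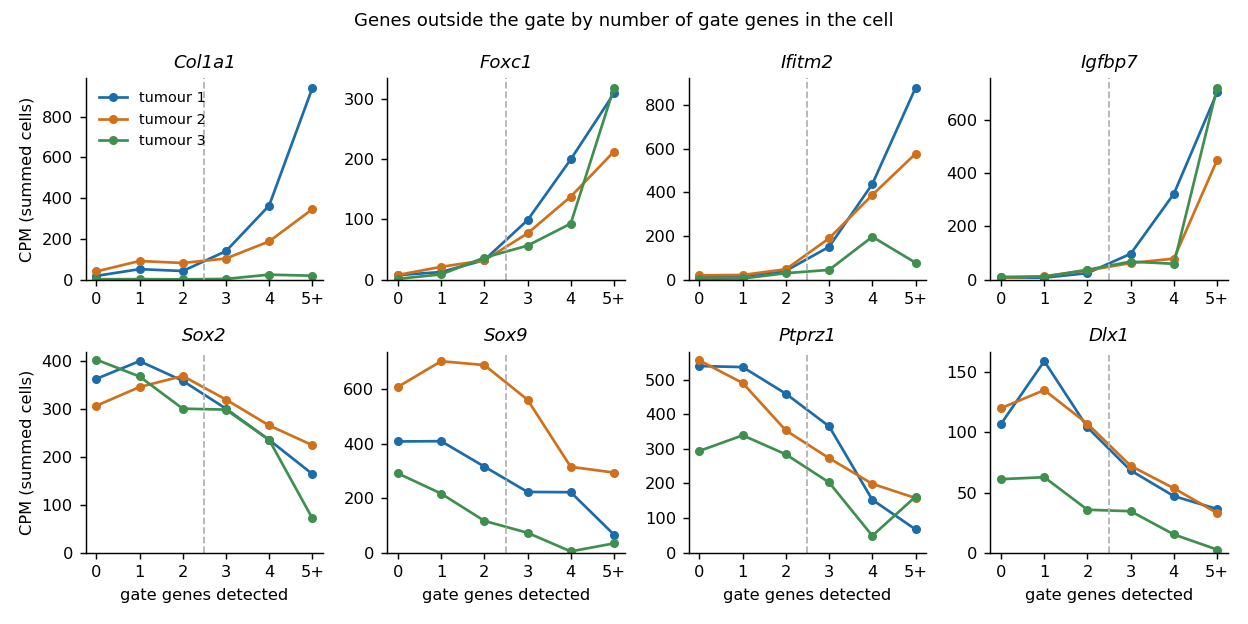
Level of 8 genes in CPM (vertical axes) in cells summed by the number of gate genes they held (horizontal axes), 1 line per tumour; the dashed line marks the gate. Foxc1 reaches 310, 213 and 319 CPM at 5 or more gate genes, and Col1a1 stays at 23.7 CPM or below in tumour 3.

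Gate cells that passed with Mpzl2 differed from those that passed with Col3a1, again as a description, since both genes belong to the rule. There were 30, 28 and 32 gate cells with Mpzl2 and without Col3a1, and 356, 273 and 16 with Col3a1 and without Mpzl2. Cdh1 was at 29.9, 33.7 and 88.7 CPM in the first and at 4.70, 1.77 and 16.5 CPM in the second, higher with Mpzl2 in every tumour. Few cells carry these values, since a Cdh1 UMI was found in 2 of 30, 3 of 28 and 13 of 32 cells of the first kind and in 11 of 356, 5 of 273 and 3 of 16 of the second. Col6a1 ran the opposite way, at 27.2, 6.12 and 0 CPM against 125, 50.7 and 4.12 CPM, from 3, 1 and 0 cells against 71, 31 and 1 cells. In tumour 3, 38.1% of gate cells were of the first kind and 19% of the second, whereas in tumour 1 the shares were 6.15 and 73.0%.

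Finally, gate cells were compared with the mural cells, host cells that also make matrix proteins. Across 13856 genes 1037 were higher in the gate (7.48%) and 1445 lower (10.4%) by edgeR's quasi-likelihood test, with a median over all genes of 0.13. Leaving out tumour 1 gave 896 calls, tumour 2 gave 1407 and tumour 3 gave 2172. When any Rgs5 UMI made a cell mural, with no need of Vtn or Kcnj8, 706 genes were called, and the list counts below are also given for that wider class where they moved. The mural sums come from only 85, 30 and 43 cells, whose median depth was 4365, 3774 and 13753 UMIs, so that low genes are poorly measured there. Both comparisons share the gate sums and are not independent.

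Genes of the pericyte were far lower in gate cells. The choice of cells fixed this direction, since mural genes selected the one class and were limited in the other, and the values are given as a description. Pdgfrb, the receptor that recruits pericytes to vessels, was at 3.72, 3.86 and 2.57 CPM in the gate and at 655, 747 and 648 CPM in mural cells, a log2 difference of -7.60. Higd1b had 2 UMIs in all gate cells against 1469 in mural cells, a mural to gate ratio of CPM of 7343 with an exact counting interval of 2029 to 60692. The aminopeptidase gene Enpep had 0 UMIs in the gate and 113 in mural cells, which makes it at least 377-fold lower. Neither gene could have passed the filter on low counts by its gate UMIs. Notch3, the Notch receptor of mural cells, was at 25.1, 21.5 and 13.7 CPM against 328, 317 and 217 CPM (-3.74), and Heyl at 8.78, 2.03 and 3.43 CPM against 125, 114 and 102 CPM (-4.57). Of 20 Notch genes 7 were lower and 1 higher, with a median of -0.16 (-0.43 with a gene absent from a class at its bound). Without tumour 1 the Notch list had 4 lower and 2 higher, and with any Rgs5 UMI 3 lower and 0 higher.

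Of 42 measured matrix genes 9 were higher in the gate and 16 lower (median -0.30, with 3 genes absent from a class), where 7.48% of all genes were higher and 10.4% lower. The counts were 2 and 13 without tumour 1 (median -1.31) and 4 and 13 without tumour 2, and with any Rgs5 UMI they were 6 and 12 (median 0.36). Bgn, a proteoglycan of vessel walls, was at 2.68, 0.406 and 3.00 CPM in the gate against 576, 469 and 598 CPM (-8.10 ± 0.38), and Pcolce, which enhances procollagen cleavage, differed by -7.18 ± 0.84. As with the pericyte genes, mural genes had chosen the cells, so both values are a description. The count of lower matrix genes includes both. On the other side, Tnc, a matrix protein of developing tissue, had 90 UMIs in the gate and 0 in mural cells and was at least 3.00-fold higher, and Fbln2 was at least 4.17-fold higher by the same limit of 3 counts over the mural class. Single cells held 75% of the Tnc UMIs and 95.2% of the Fbln2 UMIs in tumour 3, and both calls were lost without tumour 1 (edgeR adjusted p = 0.0976 and 0.08) and without tumour 3 (0.18 and 0.196). The Fbln2 call was also lost without tumour 2 (0.0556). Neither Tnc nor Fbln2 could have passed the filter on low counts by its mural UMIs. The collagen gene Col1a1, at 306, 155 and 10.7 CPM against 204, 253 and 22.2 CPM, overlapped between the classes (-0.11 ± 0.64, edgeR adjusted p = 0.955), and its sign turned in 8 of the alternative settings. Of 22 matrix enzymes and inhibitors 1 was higher, Loxl1, and 9 were lower (2 and 7 with any Rgs5 UMI). Igfbp7 was at 236, 122 and 171 CPM against 3709, 3496 and 2964 CPM (-4.27 ± 0.45), while Igfbp4 was at 657, 635 and 289 CPM against 65.3, 25.3 and 47.3 CPM (3.15 ± 0.59, edgeR adjusted p = 0.00207), a call lost without tumour 1 (0.0689).

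None of 20 mesenchymal transcription factors was called higher than in mural cells by edgeR with the settings used throughout or by DESeq2, although 3 were higher at an unadjusted p under 0.05. By edgeR 1 was higher without the filter on low counts, 1 with at least 4 gate genes and 1 when any Rgs5 UMI made a cell mural. Of these 20 members 7 were lower (median -0.27), namely Foxs1, Foxd1, Tbx2, Tbx18, Snai1, Zeb1 and Zeb2. This fell to 3 of 19 without tumour 1 (median 0.05) and to 3 of 19 with any Rgs5 UMI (median -0.87). Foxs1, a forkhead factor of pericytes, was at 2.38, 0 and 1.29 CPM in the gate against 80.6, 95 and 47.3 CPM (-5.99 ± 0.73). As with the other pericyte genes, mural genes had chosen the cells, so this is a description. Foxs1 could not have passed the filter on low counts by its gate UMIs. Twist2 was at 12.9, 5.89 and 15 CPM against 0, 0 and 2.78 CPM from 2 mural UMIs and did not pass (edgeR adjusted p = 0.0916).

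Several neural stem and hedgehog genes were higher in the gate than in mural cells. Sox2, at 266, 295 and 245 CPM against 127, 95 and 150 CPM, was higher by 1.11 ± 0.26 (edgeR adjusted p = 0.00869) in 3 of 3 tumours, and 7 of 15 neural stem genes were higher with 0 lower (median 0.82, or 0.63 with a gene absent from a class at its bound). Without tumour 1 or tumour 2 the Sox2 call was lost (edgeR adjusted p = 0.104 and 0.0731), and 0 genes of this list were called. With any Rgs5 UMI the list had 1 of 16 higher (median 0.08), and the Sox2 difference was 0.28 (edgeR adjusted p = 0.73). Of 12 hedgehog genes 7 were higher (Cdon, Gas1, Gli2, Gli3, Smo, Boc and Ptch1) and 0 lower, with a median of 1.28 and all 12 differences positive. Without tumour 1 this list had 1 call, without tumour 2 it had 4, and with any Rgs5 UMI 1 (median 0.78). Cdon was at 132, 121 and 145 CPM against 9.6, 19 and 32.0 CPM, a separation of 2.57 ± 0.30 (edgeR adjusted p = 4.15e-05) that kept its call with each tumour left out in turn. Ptch1, which reports hedgehog signalling, was higher by 1.13 ± 0.29 (edgeR adjusted p = 0.0148), but not without tumour 1 (0.092) or tumour 2 (0.0789). Of 22 cell cycle genes 4 were higher and 0 lower (1 higher without tumour 1, 7 without tumour 2 and 1 with any Rgs5 UMI), with Ccnd2, a D-type cyclin of neural progenitors, at 885, 717 and 621 CPM against 319, 215 and 143 CPM (1.81 ± 0.35). The other lists are read against the 7.48% of all genes that were higher and the 10.4% that were lower. Of 24 Wnt genes 9 were higher and 4 lower, of the 25 SWI/SNF genes other than Smarcb1 6 and 1, of 32 TGF-beta and BMP genes 5 and 5, of 19 insulin-like and platelet-derived growth factor genes 4 and 3, and of 23 filament and adhesion genes 3 and 11. Without tumour 1 these counts were 3 and 2 for Wnt, 0 and 0 for SWI/SNF, 2 and 4 for TGF-beta and BMP, 1 and 2 for the growth factor list and 2 and 7 for filaments and adhesion. Without tumour 2 they were 3 and 1, 1 and 0, 2 and 5, 3 and 3, and 4 and 7 in the same order, and with any Rgs5 UMI 1 and 1, 0 and 0, 2 and 2, 3 and 2, and 3 and 0. In the class I and interferon list 5 of 13 were lower and 0 higher (3 and 0 without tumour 1, 2 and 1 with any Rgs5 UMI), while 1 of 13 ganglionic eminence genes (Sp9, a call lost with any 1 tumour left out) was higher and 1 of 13 neuronal genes (Tubb3, a call lost without tumour 1) lower, both near those shares. With any Rgs5 UMI the ganglionic eminence list had 0 calls and the neuronal list had 2 lower. In addition 0 of 7 neuronal repressor genes passed (3 at an unadjusted p under 0.05, 0 by DESeq2), but without tumour 3 the list had 3 higher. Among called genes with a mean of at least 20 CPM, those above mural cells include Erich2, with 299 UMIs in the gate and 0 in mural cells (at least 9.97-fold), and Trh (at least 9.04-fold), whose call was lost without tumour 2 (edgeR adjusted p = 0.104). Neither gene could have passed the filter on low counts by its mural UMIs. H19 had 2261 gate UMIs and 2 mural ones, a ratio of CPM of 113 with an exact counting interval of 31.3 to 934. Rspo3, a secreted Wnt amplifier, was at 46.7, 38.6 and 22.7 CPM in the gate, where the mural cells held 2 UMIs.

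**Figure D5:**
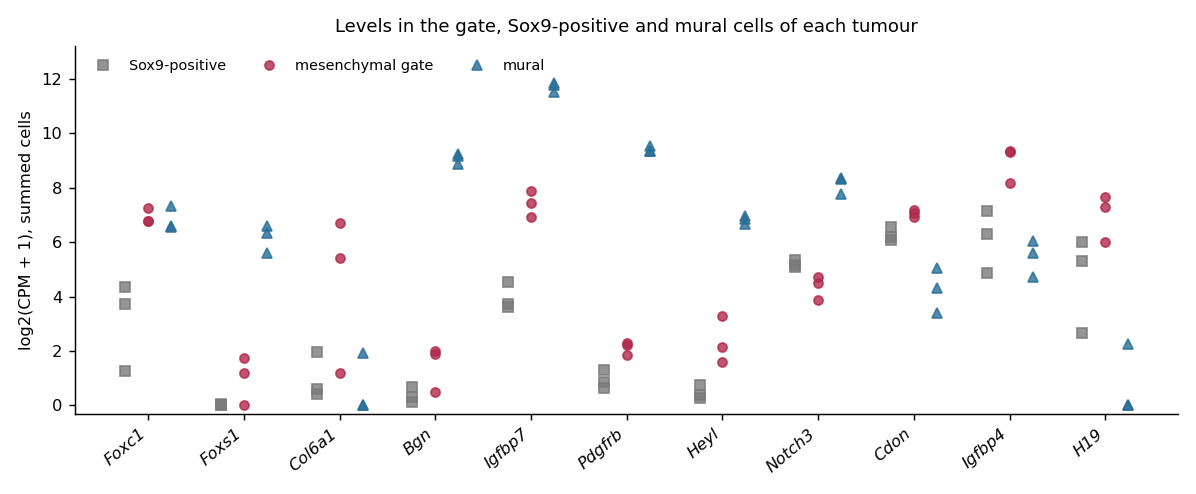
Level of 11 genes as log2(CPM + 1) (vertical axis) in the summed Sox9-positive, gate and mural cells of each tumour (1 point per tumour and class). Bgn, Igfbp7, Pdgfrb, Heyl and Notch3 are highest in mural cells, whereas Cdon, Igfbp4 and H19 are higher in gate cells than in mural cells.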

How the data were processed

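The deposited matrices hold raw, unnormalized UMI counts of each gene in each droplet barcode, for which the submitters' processing notes name Cell Ranger 3.1.0 and mm10. The 3 libraries have 12467, 9485 and 6428 barcodes with 79529921, 40151353 and 67645602 UMIs. The study's own removal of non-tumour cells was not applied. The cell classes, gene lists and tests were chosen with earlier results of these data known. Of the kept cells 18, 16 and 15 shared a barcode with another library, among them 1, 1 and 0 gate cells. Scrublet (scanpy 1.11.5) was used only as an alternative, since its own threshold marked 0, 8 and 0 cells. It removed 33, 10 and 3 gate cells at a rate of 0.8% per 1000 cells.

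UMIs were summed per tumour and class, with at least 10 cells a sum, and 1 edgeR 4.0.16 fit (R 4.3.3) took the 5 classes (gate, Sox9-positive, mural, endothelial and immune) of the 3 tumours, with TMM factors, filterByExpr and terms for class and tumour. The tumour term pairs the sums because they come from the same animal. P-values of the quasi-likelihood test were adjusted by Benjamini-Hochberg over all genes tested after the rule's genes (16, or 17 with Sox9) had been left out, with 0.05 as the threshold. The SE is the absolute log2 difference divided by the square root of F. Counts were thinned to 2000 UMIs per cell for shares. The script was tested on simulated counts. Genes named with values were Smarcb1, the gate genes, 31 genes of interest, the 10 largest called differences in each direction with a mean of at least 20 CPM, and up to 4 called members of each list, some of which are not reported here. Of 31053 genes 30934 matched GENCODE M21 by identifier, which gave the positions (1-based). Alternatives were RLE factors, DESeq2 1.42.0, no filter on low counts, no tumour term, leaving out each tumour, other depth, mitochondrial and gate limits, and other comparison cells.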

Additional observations from a re-analysis of the deposited data

How the results depend on the processing

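The comparison with Sox9-positive cells depended on the processing more than the others. Its count of 478 called genes became 744 with DESeq2, 851 without the filter on low counts, 195 with only the 2 compared classes in the fit, 930 with at least 4 gate genes, 800 with cells thinned before classing and 93 with only gate cells that held a Sox9 UMI, and leaving out 1 tumour gave 9 to 876. Without the tumour term, which pairs the sums of 1 animal, the counts were 142 against Sox9-positive and 1633 against mural cells. This block matters because the sums of a tumour share its animal. The count of 2482 against mural cells became 1646 with only those 2 classes in the fit and 706 when any Rgs5 UMI sufficed, and 896 to 2172 without 1 tumour. The share of called genes that were higher, 88.1% against Sox9-positive cells, fell to 74.0% with at least 4 gate genes, 76.8% with thinned cells and 77.3% without tumour 3. Against mural cells it was 41.8% and went down to 20.9% without tumour 1 and 26.8% without tumour 2, 26.5% without the tumour term, 31.2% with 2 classes and 31.3% with any Rgs5 UMI. For these changes the cause was not tested.

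Smarcb1 stayed below mural and immune cells under every alternative run. Its uncalled difference from Sox9-positive cells turned positive with only gate cells that held a Sox9 UMI (0.24), without astrocyte-like cells (0.12) and without tumour 3 (0.09, in a range of -0.62 to 0.09 over the tumours left out), and no alternative gave a call. With only those 2 classes in the fit, Smarcb1 had too few counts to pass the filter. In the fit without the tumour pairing it was -0.14. The gate share of 6.63% became 2.35% with at least 4 gate genes and 1.94% in thinned cells. With any Rgs5 UMI 45 of the 2482 genes called against mural cells turned sign, among them, of the genes named, Bcl7a (-0.18) and Sp9 (-0.24). At most 7 turned under any other alternative. Among uncalled ones Col1a1 against mural cells turned to 0.13 without the tumour block, 0.01 without tumour 2 and 0.09 without tumour 3 (range over the tumours left out -0.79 to 0.09), 0.79 with at least 4 gate genes, 1.07 in thinned cells, 0.48 with separate UMIs for classing and summing, 0.10 at a mitochondrial limit of 10% and 0.81 with any Rgs5 UMI. Against Sox9-positive cells Nes turned to -0.04 and Zeb1 to 0.04 in thinned cells, and Zeb1 to 0.06 with only gate cells that held a Sox9 UMI. Of 1172 values of 63 called genes against Sox9-positive cells, 928 kept their call, 244 lost it and 0 turned. Against mural cells 1156 of 1383 values of 82 genes kept it. Leaving out 1 gate cell of tumour 3, chosen after seeing the data, left 473 and 2458 calls. Gate sums of tumour 3 rest on 84 cells and mural sums on 30 to 85, and a count of 0 in them limits only the level, not the presence, of a gene.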
